A study of Mus musculus with 4 samples.

Results

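The solute carriers expressed in primary MEFs were examined in RNA-seq of *Phf2* WT and *Phf2* KO cells. Members were gene symbols that begin with Slc and a digit or with Slco and that had a mean raw count of at least 50 over the 4 libraries. *Slc14a1*, which is below that level, was added because of its difference between these groups, and *Slc2a1*, *Slc3a2*, *Slc7a5* and *Slc7a11* were left out by name. Of 24391 gene symbols in the count table, 388 were carrier symbols, and 196 of these reached the minimum. Without the 4 left out, 192 members were chosen by level, and with *Slc14a1* there were 193, in 43 families by symbol. Of the 192, 5 carry such a symbol but encode no carrier, among them the scaffold proteins *Slc9a3r1* and *Slc9a3r2*. At the edge of the choice, *Slc43a1* (mean count 50.0) and *Slc6a7* (52.5) were just inside, and *Slc26a10* (49.75) and *Slc4a11* (42.75) just outside. A further 40 carrier symbols had 0 counts in all 4 libraries.

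Solute carriers are membrane proteins that move ions, nutrients, metabolites and metals across the plasma membrane and the membranes of organelles, by facilitated diffusion or by coupling to the gradient of another solute. They are numbered by sequence family, and a family often shares a class of substrate. In fibroblasts they supply amino acids, phosphate, zinc and lipid precursors, and those of the Slc25 family connect mitochondria to the cytosol.

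All 4 libraries came from MEFs grown from E13.5 embryos and kept quiescent, with the genotype *Phf2* flox/flox, ERCre/+, that is, floxed *Phf2* and a CreERT2 recombinase expressed from the Rosa26 locus. There were 2 WT and 2 *Phf2* KO libraries, numbered as replicates 1 and 2 in each group, and tamoxifen is a label of the *Phf2* KO libraries alone. The protocol text, with 0.5 µM 4-hydroxytamoxifen (4-OHT) for 7 days, is worded alike for all 4, and the labels give no library with 4-OHT but without recombination, so that the effects of 4-OHT, active Cre and loss of *Phf2* cannot be told apart. The study calls the replicates biological without saying whether they are separate embryos or cultures, and p-values measure only the spread between these samples.

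The libraries held between 21094743 and 26094268 counts. *Phf2*, the deleted gene, had 3244 and 3680 counts in the WT libraries, 1454 and 2158 in those of *Phf2* KO, which was 57.9% of the WT level, so its transcript was lower in both *Phf2* KO libraries and still present. Counts per gene do not show whether these transcripts held the floxed part, so they do not measure how complete the deletion was. The study reports depletion of the protein, with immunoblots, and the loss of nearly all Phf2 ChIP-seq peaks in *Phf2* KO MEFs. Fibroblast markers such as collagen genes summed to 88675 and 91848 CPM (counts scaled to library size by TMM) in WT and 79033 and 76279 CPM in *Phf2* KO MEFs. Replicates 1 and 2 stood apart from each other in both groups. Macrophage markers, 20 of 21 listed being in the table, summed to 4801 and 5291 CPM in replicate 1 of WT and *Phf2* KO MEFs and to 1026 and 1594 CPM in replicate 2, and 19 of 19 tested were higher in replicate 1 in both groups. None of these markers was at 0 in all libraries. Of 8 endothelial markers, *Tie1* and *Cldn5* were, and 2 others had enough counts to be tested. *Kdr* had 441 and 232 counts in the WT libraries and 258 and 135 in those of *Phf2* KO, higher in replicate 1 of both groups. *Tek* had 79 and 71 (WT) and 67 and 76 (*Phf2* KO). *Xist*, the RNA of the inactive X chromosome, had 10042 and 8336 counts in replicate 1 and 3 and 12 in replicate 2, and *Ddx3y*, on the Y chromosome, had 6 and 10 counts in replicate 1 and 1271 and 1295 in replicate 2. The replicate numbers thus differed in macrophage transcripts and in the sex of the cells, which cannot be told apart. In bulk RNA, fewer cells of a type and less RNA per cell cannot be told apart either.

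The carriers covered a wide range of levels. Per kilobase of exon, averaged over the 4 libraries, the median member was at 6.58 CPM per kb, with a range from 0.368 to 284.5, and 13 members were over 50 and 17 under 1. The 10 most abundant members by CPM held 34.9% of the summed CPM of all 192. The highest per kilobase was *Slc25a4*, the ADP/ATP carrier of the inner mitochondrial membrane, at 284.5 CPM per kb. *Slc39a7*, a zinc transporter of the endoplasmic reticulum, was at 169.3 CPM per kb, but the annotation places another gene model over it on the same strand, so its reads could be split. *Slc44a2*, of the choline transporter-like family, followed among the tops of the other classes at 119.6 CPM per kb, then *Slc12a4*, a potassium-chloride cotransporter, at 67.2, and *Slc38a2*, which imports small neutral amino acids, at 63.2. The leading sugar carrier was *Slc50a1* at 37.4 CPM per kb, the leading member of the nucleotide sugar family *Slc35b1* at 31.7, and the leading organic ion carrier *Slc22a17*, a lipocalin receptor, at 23.1. Among nucleoside carriers *Slc29a1* was highest, at 8.12 CPM per kb. None of these leading members had an unadjusted p under 0.05 between the groups, with log2 fold changes of *Phf2* KO to WT MEFs from -0.10 for *Slc35b1* to 0.38 for *Slc22a17*. With each library left out in turn these ranged from 0.015 to 0.74 for *Slc22a17* and from 0.048 to 0.51 for *Slc12a4*. Gene models on the other strand overlap *Slc12a4* and *Slc29a1* and other members, of which *Slc7a2*, *Slc15a3*, *Slc16a3*, *Slc16a9*, *Slc20a1*, *Slc24a5*, *Slc39a9* and *Slc48a1* are described here, and the study's methods give a reverse-stranded setting beside the alignment but not beside the counting, so that it is not known whether reads of both strands were joined in their counts.

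The sequences just before the start of 4 carriers are shown. *Slc5a7* and *Slco2a1* had the lowest p-values between the groups among members chosen by level. *Slc11a1* and *Slc37a2* were over 1 log2 unit higher in replicate 1 in both groups, and were picked because they are listed as known in macrophages. *Slco4a1*, *Slc16a10* and *Slc9a9* met the same difference, and their windows, not shown, hold no GAGGAA. Each is the 250 bases before the RefSeq start (table of GRCm38.p6), found once on NCBIM37 (mm9), at chr17:54438360-54438609 on the reverse strand for *Slc5a7*, chr9:102910567-102910816 on the forward strand for *Slco2a1*, chr1:74421527-74421776 on the forward strand for *Slc11a1* and chr9:37063324-37063573 on the reverse strand for *Slc37a2*. They are written 5′ to 3′ on the strand of the gene. Capitals mark matches on either strand to the TATA box (TATAAA), the GC box (GGGCGG) or GAGGAA, the core of a site for the macrophage transcription factor PU.1, which reads TTCCTC on the other strand.
Slc5a7: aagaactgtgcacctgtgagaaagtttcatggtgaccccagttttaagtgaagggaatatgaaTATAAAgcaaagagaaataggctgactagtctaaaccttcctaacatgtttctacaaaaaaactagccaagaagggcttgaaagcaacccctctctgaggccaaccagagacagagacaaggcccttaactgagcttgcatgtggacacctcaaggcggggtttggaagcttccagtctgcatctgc
Slco2a1: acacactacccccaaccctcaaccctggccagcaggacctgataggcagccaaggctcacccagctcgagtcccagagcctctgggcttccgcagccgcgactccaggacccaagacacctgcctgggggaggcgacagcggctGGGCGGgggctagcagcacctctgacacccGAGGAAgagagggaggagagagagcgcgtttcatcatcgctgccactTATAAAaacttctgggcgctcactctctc
Slc11a1: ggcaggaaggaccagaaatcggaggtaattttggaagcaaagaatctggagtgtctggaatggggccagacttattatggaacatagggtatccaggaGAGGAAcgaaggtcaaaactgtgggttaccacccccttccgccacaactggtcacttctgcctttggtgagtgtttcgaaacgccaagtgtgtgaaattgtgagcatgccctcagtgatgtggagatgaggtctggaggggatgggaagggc
Slc37a2: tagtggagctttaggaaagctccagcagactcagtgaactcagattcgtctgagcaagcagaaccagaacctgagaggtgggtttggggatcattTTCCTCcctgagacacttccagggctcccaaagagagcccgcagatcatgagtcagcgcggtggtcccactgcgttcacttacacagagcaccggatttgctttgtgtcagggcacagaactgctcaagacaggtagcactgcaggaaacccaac

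The motifs do not overlap each other in these windows. TATAAA was found in *Slc5a7* and *Slco2a1*, that is, in 2 of the 6 carriers that were lower in *Phf2* KO MEFs at an unadjusted p under 0.05, and in 3504 of 27025 windows of all genes. GAGGAA was found in 6 of the 9 windows at hand for the 10 carriers over 1 log2 unit higher in replicate 1, against 6252 of all windows (23.1%). GGGCGG, in 8901 of all windows (32.9%), was in 4 of the 6 and in 5 of the 9. GGGCGG was also found in many windows of members outside these sets, so its share of all genes is no measure for carriers. The motifs were chosen after these values were seen, and only 75.6% of the 193 members had a window. The shares over the members with a window are not given here, and no enrichment is read from these counts.

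No member chosen by level passed the test between *Phf2* KO and WT MEFs, which was fitted on the groups alone, without the replicate number. The differences in sex and macrophage transcripts between the replicate numbers thus counted as spread within each group. In that fit the deleted gene *Phf2* was itself not called (log2 fold change -0.79, unadjusted p = 0.0033, adjusted p = 0.999 by edgeR). A member that was not called is therefore not shown to be unchanged. By the quasi-likelihood test of edgeR, with p-values adjusted by Benjamini-Hochberg over 13668 genes, 0 of 192 members were above WT and 0 below at an adjusted p under 0.1, against 0% and 0.00732% of all genes tested. limma-voom called 0. DESeq2, which called 64 of 18924 genes tested, called *Slc5a7* alone among the members, lower in *Phf2* KO MEFs. At an unadjusted p under 0.05, 1 member was higher and 6 were lower, that is, 0.521% and 3.12%, against 1.54% and 2.67% of all genes tested. These counts of members moved when each library was left out in turn, as given below. Among genes at the members' minimum, a mean count of 50, the shares were 0%, 0.00865%, 1.63% and 2.6%. Both *Phf2* KO libraries were above both WT libraries for 24 members (12.5%), and below them for 33 (17.2%), against 15.5% and 18% of all genes tested and 15.8% and 18% of those at the minimum. The members' shares were thus near those of all genes, and the median log2 fold change of the 192 was -0.00035 (quartiles -0.11 and 0.13), beside 0.0054 over all genes (quartiles -0.12 and 0.13). An exact permutation test of 2 against 2 libraries cannot go below p = 0.333, so none is given for single carriers.

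The urea transporter *Slc14a1* was chosen for its difference between these groups, and its values are a description. The WT libraries had 60 (replicate 1) and 54 (replicate 2) of its counts, those of *Phf2* KO 4 (replicate 1) and 0 (replicate 2). Both *Phf2* KO libraries were far below both WT libraries. In CPM, *Phf2* KO was 12.9-fold lower than WT in replicate 1, and at least 16.7-fold lower in replicate 2, where a count of 3 in the *Phf2* KO library was taken as the limit of detection. Even in WT MEFs it was scarce, at 2.28 ± 0.289 CPM (SD, n = 2), where the counting error is large.

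The member with the lowest p-value among those chosen by level was *Slc5a7*, the high-affinity choline transporter known from cholinergic neurons, on the reverse strand of chromosome 17 (mm9, 54412919 to 54438359) in 9 exonic blocks. It had 210 and 245 counts in the WT libraries, 97 and 101 in those of *Phf2* KO, so that the groups did not overlap. Normalized, these were 9.07 ± 0.515 and 4.44 ± 0.339 CPM (SD, n = 2), a log2 fold change at -1.03 (standard error 0.17, unadjusted p = 0.0023, adjusted p = 0.999 by edgeR). Within replicate numbers the log2 ratio of *Phf2* KO to WT was -0.90 for replicate 1 and -1.17 for replicate 2. DESeq2 gave an adjusted p of 0.0721.

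*Slco2a1*, the prostaglandin transporter, lies on chromosome 9 from 102910817 to 102990179 on the forward strand in 14 exonic blocks. It had 828 and 842 counts in the WT libraries, 519 and 517 in those of *Phf2* KO. Both *Phf2* KO libraries were lower, with a log2 fold change at -0.52 (standard error 0.12, unadjusted p = 0.00926 by edgeR). *Slc38a4*, a sodium-coupled carrier of neutral amino acids and an imprinted gene, had 82 and 95 counts in the WT libraries, 41 and 55 in those of *Phf2* KO, a log2 fold change at -0.72 (standard error 0.22, unadjusted p = 0.0257 by edgeR). It was among the scarcest members, at 0.703 CPM per kb. *Slc19a1*, the reduced folate carrier, had 329 and 365 counts in the WT libraries, 225 and 245 in those of *Phf2* KO, with a log2 fold change at -0.40 (standard error 0.13, unadjusted p = 0.0318 by edgeR). *Slc16a1*, which encodes the lactate and pyruvate carrier MCT1, had 879 and 780 counts in the WT libraries, 555 and 563 in those of *Phf2* KO, with a log2 fold change at -0.41 (standard error 0.15, unadjusted p = 0.0421 by edgeR). For each of these the groups did not overlap. *Slc25a12*, the mitochondrial aspartate/glutamate carrier, differed least among the 6, with counts of 1506 and 1701 (WT) and of 1137 and 1297 (*Phf2* KO) and a log2 fold change at -0.23 (standard error 0.08, unadjusted p = 0.0381 by edgeR). The fibroblast markers, as a sum, were also lower in both *Phf2* KO libraries. By edgeR, 3 of 12 were lower at an unadjusted p under 0.05, against 2.67% of all genes tested. The sum was led by matrix genes such as *Col1a1*, at 25309 CPM in WT. *Pdgfrb* (log2 fold change 0.10), *Thy1* (0.03), *Vim* (0.02) and *Pdgfra* (-0.04) had overlapping groups. The part of the markers in the values of these 6 carriers was not tested.

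The single member higher in *Phf2* KO MEFs at an unadjusted p under 0.05 was *Slc8b1*, the sodium/calcium exchanger of the mitochondrial inner membrane. The WT libraries had 1306 and 1410 of its counts and those of *Phf2* KO 1412 and 1567, or 54.2 ± 0.109 and 66.6 ± 2.09 CPM (SD, n = 2), and both *Phf2* KO libraries were above both WT libraries. Its log2 fold change came to 0.30 (standard error 0.08, unadjusted p = 0.0161 by edgeR). All adjusted p-values of these 7 carriers were 0.999.

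**Figure D1:**
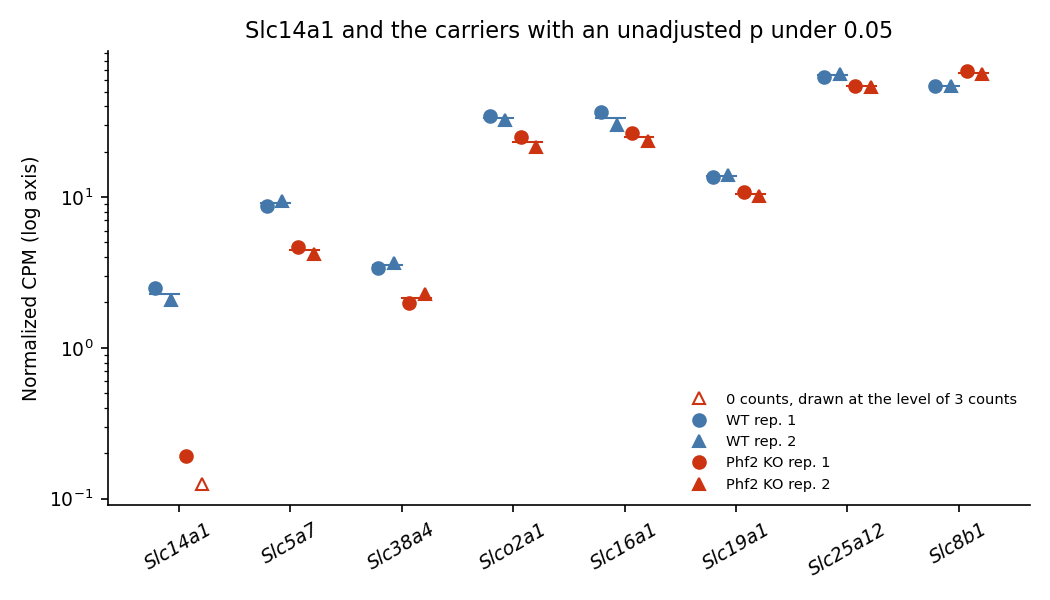
Normalized CPM (log axis) of *Slc14a1* and the 7 carriers with an unadjusted p under 0.05, with circles for replicate 1, triangles for replicate 2 and horizontal lines for group means (none for *Slc14a1* in *Phf2* KO MEFs, where the open triangle stands for 0 counts at the level of 3). WT libraries are blue and *Phf2* KO libraries red. In 7 of the 8 genes both red points are below both blue points, and in *Slc8b1* both are above.

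The carriers were then compared by substrate class, by the sum of normalized CPM in each library. Of 10 classes, the groups did not overlap in 2, and in the other 8 they did. Of 42 families, 2 (Slc8 and Slc12) had a higher sum in *Phf2* KO MEFs without overlap and 6 (Slc7, Slc16, Slc19, Slc33, Slc41 and Slco) a lower one. Not all were shifts of a whole family. Slc33 has 1 member, and Slc8 and Slc19 each had 1 positive and 1 negative log2 fold change. In Slco, 2 of 3 were positive although the sum was lower. No share over other sets of genes stands beside these family sums. Non-overlap of 2 against 2 libraries is common, as an exact permutation p cannot go below 0.333. No family or class is therefore read as changed from it. The counts of single members without overlap, in each class, stand beside 15.5% (higher) and 18% (lower) of all genes tested. The 8 members of the Slc16 family, which carry lactate and other monocarboxylates but also aromatic amino acids, summed to 108 and 91.4 CPM in the WT libraries and 89.0 and 76.8 CPM in those of *Phf2* KO, or 83.1% of the WT mean. *Phf2* KO was at 82.2% of WT in replicate 1 and at 84.1% in replicate 2. The log2 fold changes were negative in 7 of the 8, and *Slc16a1* and *Slc16a9* were among those whose groups did not overlap. *Slc16a9* had 90 and 91 counts in the WT libraries, 41 and 65 in those of *Phf2* KO, with a log2 fold change at -0.62 (standard error 0.25). *Slc16a3*, the lactate exporter MCT4, was scarce, with counts of 101 and 62 (WT) and of 87 and 50 (*Phf2* KO) that followed the replicate number. No member of the family was called, and 1 of 8 had an unadjusted p under 0.05.

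The 23 carriers of inorganic ions summed to 1313 and 1443 CPM in the WT libraries and 1475 and 1491 CPM in those of *Phf2* KO, or 107.6% of the WT mean. *Phf2* KO was at 112.3% of WT in replicate 1 and 103.4% in replicate 2. The 15 positive log2 fold changes outnumbered the 8 negative, and 6 members were higher and 1 lower without overlap, against 15.5% and 18% of all genes tested. The highest member per kilobase was *Slc12a4*, counted 5218 and 7839 times (WT) and 6006 and 8045 times (*Phf2* KO), or 259.2 ± 60.5 and 312.1 ± 31.7 CPM (SD, n = 2), and these overlapped. *Slc20a1*, a sodium-phosphate cotransporter and retrovirus receptor, had 1225 and 1495 counts in the WT libraries, 1293 and 1683 in those of *Phf2* KO, with a log2 fold change at 0.29 (standard error 0.11) and no overlap in CPM. These directions of both class sums held with DESeq2's size factors and with library size alone, while with DESeq2's size factors the sums of the carriers of vitamins, lipids and choline did not overlap either, at 103.6% of the WT mean.

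**Figure D2:**
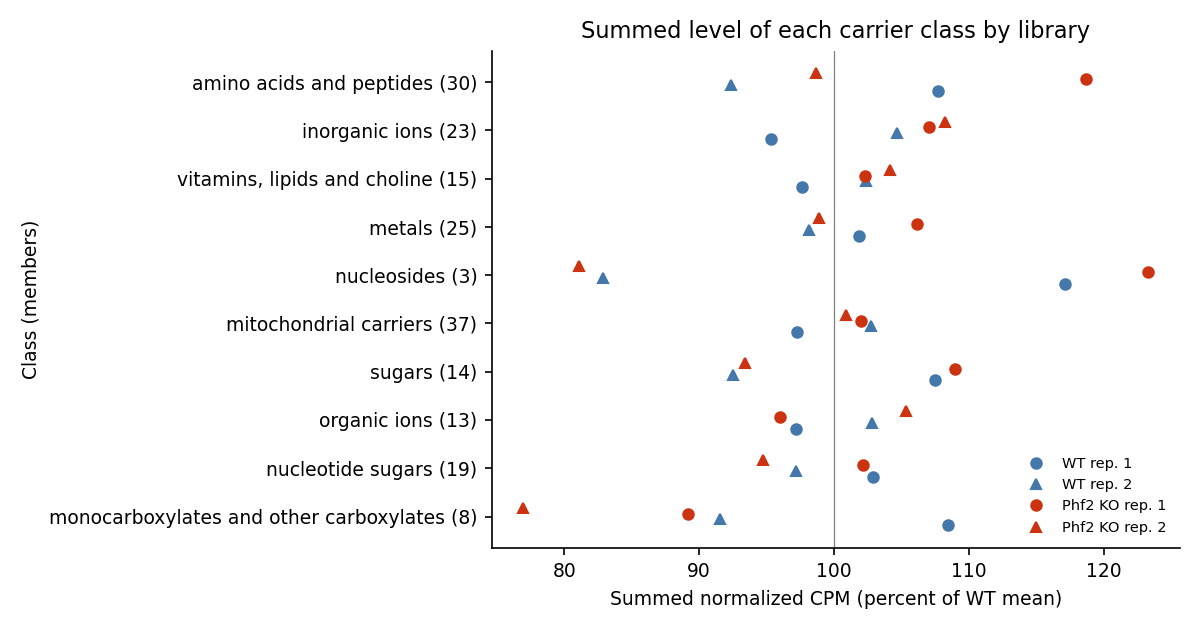
Summed normalized CPM of the carriers in each class, as a percent of the WT mean, for each library (blue WT, red *Phf2* KO, circles replicate 1, triangles replicate 2). The Slc16 class has both red points below both blue points, and inorganic ions both above. For nucleosides, sugars, nucleotide sugars, metals, amino acids and peptides, and the Slc16 class, the circles lie to the right of the triangles in both groups.

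Of the 25 carriers of metals, 6 were lower in *Phf2* KO MEFs without overlap and 0 higher, against 18% and 15.5% of all genes tested, and the sum was 102.5% of the WT mean. The 6 were the zinc transporters *Slc39a3*, *Slc39a9*, *Slc39a14* and *Slc30a5* and the magnesium carriers *Slc41a1* and *Slc41a3*, with log2 fold changes between -0.23 and -0.04. *Slc41a1* had 1447 and 1634 counts in the WT libraries, 1093 and 1319 in those of *Phf2* KO, and *Slc41a3* had 618 and 646 (WT) and 453 and 511 (*Phf2* KO). The 3 members of the Slc41 family together were at 87.3% of the WT mean, and their groups did not overlap.

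Among the 30 carriers of amino acids and peptides, 5 were higher and 4 lower without overlap, and the sums overlapped. The cationic amino acid transporters *Slc7a1*, *Slc7a2* and *Slc7a3* were the 3 lower members of the Slc7 family, which summed to 280.8 and 270.1 CPM in the WT libraries and 261.9 and 239.2 CPM in those of *Phf2* KO, that is, 91.0% of the WT mean without overlap. *Slc7a3* had the largest log2 fold change of them, at -0.52 (standard error 0.25), with counts of 155 and 137 (WT) and of 98 and 83 (*Phf2* KO). In the opposite direction, *Slc43a3*, a purine nucleobase transporter placed in this class by its family, had 224 and 250 counts in the WT libraries, 241 and 454 in those of *Phf2* KO, with a log2 fold change at 0.69 (standard error 0.26), the largest positive one among the 192. Replicate 2 of *Phf2* KO was the high library, and the log2 fold change ranged from 0.30 to 1.00 with each library left out in turn. All 5 members of the Slc6 family had positive log2 fold changes, and their sum was 122.4% of the WT mean, but it overlapped. Its leading member was the taurine transporter *Slc6a6*, with counts of 8737 and 5143 (WT) and of 9320 and 7253 (*Phf2* KO), which were higher in replicate 1 of both groups and gave a log2 fold change between 0.036 and 0.92 with each library left out in turn.

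The 37 mitochondrial carriers of the Slc25 family were close to even, with 7 higher and 7 lower without overlap, 19 positive and 18 negative log2 fold changes and a sum at 101.4% of the WT mean. *Slc25a4* was counted at 664.1 ± 74.8 CPM in WT and 674.9 ± 23.7 CPM in *Phf2* KO MEFs (SD, n = 2). Its reads could be shared with the near-identical *Slc25a5*. Of the 19 Slc35 members, 3 were lower and 0 higher without overlap, with a sum at 98.4% of the WT mean. Apart from the members with the highest level of their class or an unadjusted p under 0.05, the genes named in the comparison by class were chosen after their values were seen.

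**Figure D3:**
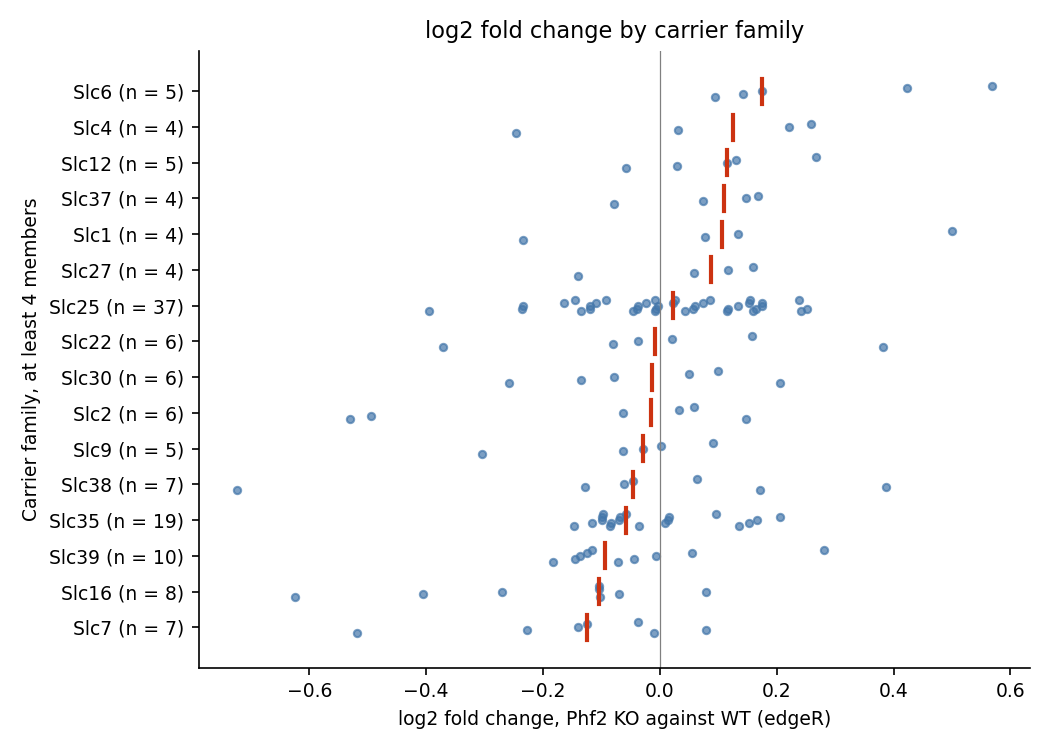
Log2 fold change of *Phf2* KO to WT MEFs (horizontal axis, edgeR) for each carrier, a blue point, in the 16 families with at least 4 members, ordered by their median, a red line. The medians lie between -0.12 for Slc7 and 0.17 for Slc6, and the points of most families lie on both sides of 0.

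Ratios of *Phf2* KO to WT, on the log2 scale, were also taken within each replicate number, since libraries of one number resembled each other. Beyond 0.3 log2 units in both numbers, 5 members (2.6%) were higher and 8 (4.17%) lower. The same shares over all genes tested were 4.17% and 5.13%, and over those at the minimum 2.63% and 3.39%. The higher members were *Slc15a3*, *Slc22a17*, *Slc43a3*, *Slc6a6* and *Slc2a4rg-ps*, which encodes no carrier, and the lower ones *Slc5a7*, *Slco2a1*, *Slc38a4*, *Slc19a1*, *Slc16a1*, *Slc16a9*, *Slc7a3* and the glucose transporter *Slc2a3*. Of the 7 carriers with an unadjusted p under 0.05, 5 were among them, while *Slc25a12* and *Slc8b1* differed by less than 0.3 log2 units in at least 1 number. The ratios and the p-values come from the same libraries, so the 5 are no separate support. *Slc22a17* had nearly the same ratio in both, 0.39 and 0.38, although its level was lower in replicate 1 of both groups. For *Slc15a3* the ratios were 0.49 and 1.06, and the summed macrophage markers were also higher in *Phf2* KO than in WT within each number. Of the 19 markers tested, 10 were higher and 9 lower in replicate 1, and 19 higher in replicate 2, and their part in the values of *Slc15a3* was not tested.

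**Figure D4:**
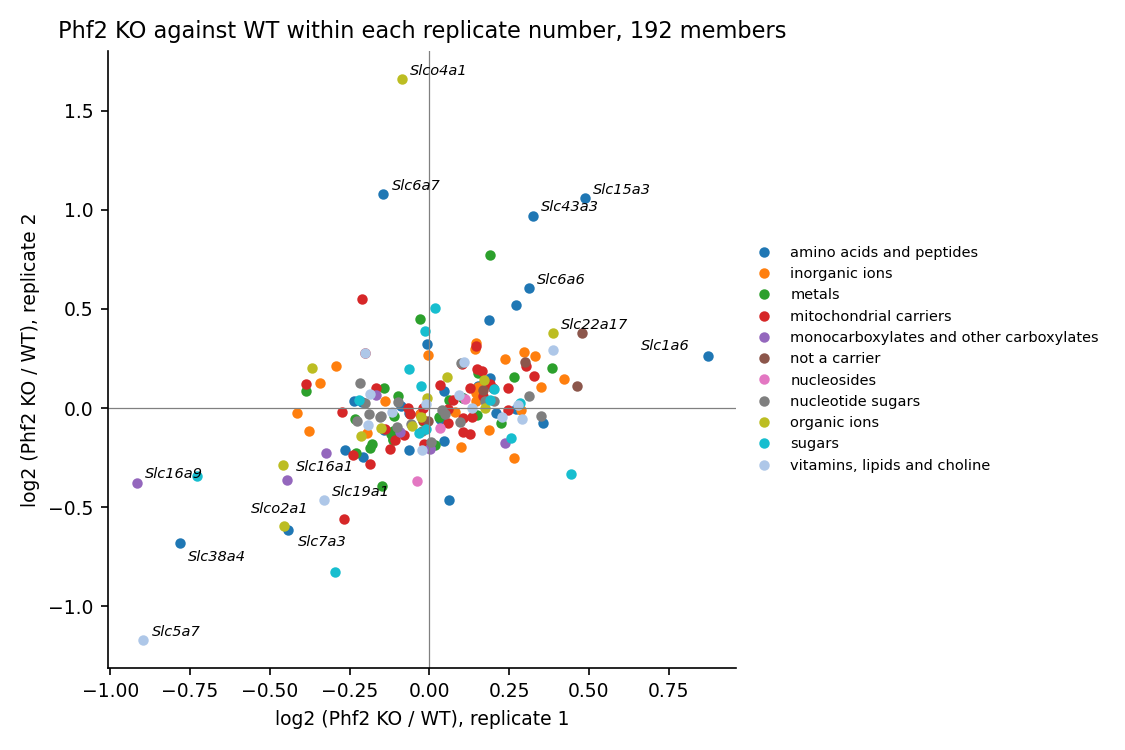
Log2 ratio of *Phf2* KO to WT within replicate 1 (horizontal axis) and replicate 2 (vertical axis) for the 192 members chosen by level, coloured by class, with those labelled that are furthest from the centre or named in the text. *Slc5a7* is at the lower left, at -0.90 and -1.17.

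The carriers were also compared between the replicate numbers. Over 1 log2 unit in both groups, 10 members (5.21%) were higher in replicate 1 and 0 in replicate 2, against 3.97% and 0.754% of all genes tested and 3.32% and 0.312% of those at the minimum. *Slc15a3*, a peptide and histidine carrier of lysosomes, was counted 3004 and 3622 times in replicate 1 of WT and *Phf2* KO MEFs and 683 and 1319 times in replicate 2, with log2 ratios of replicate 1 to 2 of 2.24 in WT and 1.67 in *Phf2* KO. A gene on the other strand overlaps it. *Slc37a2*, a sugar-phosphate exchanger, was counted 1879 and 1601 times in replicate 1 and 479 and 582 times in replicate 2. *Slc11a1*, the metal ion transporter Nramp1 of phagosomes, was counted 1311 and 1287 times in replicate 1 and 365 and 578 times in replicate 2. In each, both replicates 1 were above both replicates 2. The same order held for the amino acid carriers *Slc43a2* and *Slc7a8*, for *Slco4a1*, *Slc24a5* and *Slc25a45*, and, by smaller ratios, for *Slc9a9* and *Slc16a10*, the latter pair named after their values were seen.

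Of 7 carriers listed as known in macrophages, 7 were higher in replicate 1 in both groups. Of these, 4 were so by more than 1 log2 unit, *Slco2b1* among them, against 3.97% of all genes tested. The share of all genes higher in replicate 1 by any amount is not given here. The list was chosen with earlier results of these data known, so its order is no separate support. It summed to 631.7 and 710.7 CPM in replicate 1 and 343.7 and 406.0 CPM in replicate 2. The iron exporter *Slc40a1* was counted 1498 and 1262 times in replicate 1 and 631 and 799 times in replicate 2. The lysosomal nucleoside carrier *Slc29a3* was counted 1265 and 1175 times in replicate 1 and 1001 and 956 times in replicate 2, and the heme transporter *Slc48a1* 6214 and 5747 times in replicate 1 and 5751 and 5527 times in replicate 2, which were smaller differences. *Slco2b1*, below the minimum and not a member, was counted 62 and 38 times in replicate 1 and 13 and 4 times in replicate 2. Macrophage markers moved in the same direction, as given above, and their part in the differences between replicate numbers was not tested. Between the groups, all 7 overlapped, with unadjusted p-values of at least 0.531 from edgeR's quasi-likelihood test.

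**Figure D5:**
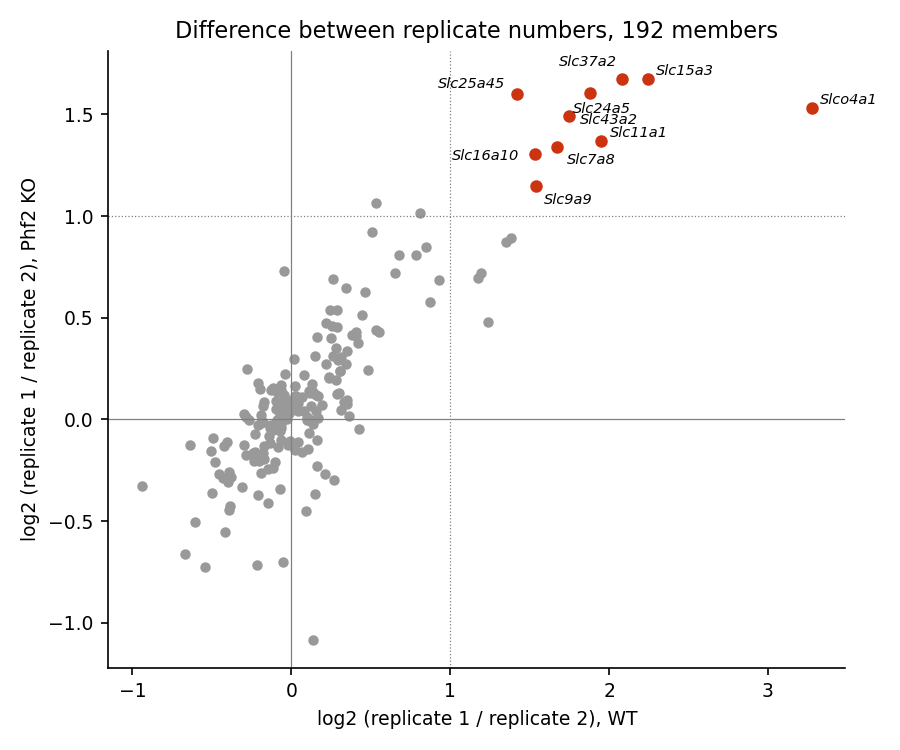
Log2 ratio of replicate 1 to replicate 2 in WT (horizontal axis) and in *Phf2* KO MEFs (vertical axis) for the 192 members, with dotted lines at 1 log2 unit. The 10 carriers over 1 in both are red, and all lie on the side of replicate 1.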

How the data were processed

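RNA-seq counts of 2 WT and 2 *Phf2* KO libraries of quiescent MEFs were used. Per the study's methods and the labels, the authors trimmed single reads with Trim Galore, removed ribosomal RNA with bowtie2, aligned to mm9 with STAR (reverse stranded) and used featureCounts to assign reads to genes. What the authors deposited are counts, in whole numbers per gene symbol, not normalized. Versions, the annotation release and the strand setting of featureCounts are not given in the sources used here. A second table of the authors holds their DESeq2 comparison (fold changes and p-values) and was not used.

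Genotype was tested in edgeR 4.0.16 under R 4.3.3 (filterByExpr, TMM, glmQLFit and glmQLFTest, Benjamini-Hochberg adjustment over 13668 genes, called at an adjusted p under 0.1). The test was tried on simulated counts, whose spread was set below that of these libraries. That trial does not show which changes the test could find here. DESeq2 1.42.0, limma 3.58.1 (voom), other scalings and filters, a block for the replicate number, and fits without 1 library were alternatives. Levels per kilobase use merged exons of an NCBIM37 annotation, on which 188 members were placed by symbol and 5 by synonym. Substrate classes were assigned by family, with *Slc5a6* and *Slc5a7* moved by substrate. Figures used Matplotlib 3.10.9.

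A chi-square test of counts between replicates gave 41.0 (WT) and 28.0 (*Phf2* KO) per degree of freedom, more than sampling noise. Detection was limited to 3 counts, that is, 0.115 to 0.142 CPM before TMM, which covers counting error only. Genes named are *Phf2*, *Slc14a1*, the highest member per kilobase of each class, members with an unadjusted p under 0.05, up to 8 that differed most between replicate numbers, carriers known in macrophages, the 2 members and 2 genes at the count minimum, and the 6 pumps and partners with the lowest p. Members and lists were chosen with earlier results of these data known. Values of some single genes are not reported here.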

Additional observations from a re-analysis of the deposited data

How the results depend on the processing

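Of 192 members, 0 were called higher and 0 lower by edgeR's quasi-likelihood test under TMM, under the other scalings and filters, with limma-voom, at an adjusted p under 0.05 and with any library left out. DESeq2 called 1 lower, *Slc5a7*, and 64 of 18924 genes in all. With the replicate number as a block, 17 were called higher and 10 lower, and 26 and 18 at an unadjusted p under 0.05. The labels do not say that a number marks a shared embryo or day, and with 2 pairs this rests on the counts alone. In both groups *Xist* was high in replicate 1 and *Ddx3y* in replicate 2. The differences between replicates in WT and in *Phf2* KO had a correlation of 0.855 across 11556 genes. In the blocked fit 1500 of 13668 genes were called, both directions together, against 1 without the block, and its common dispersion was 0.00363 against 0.0451. Its shares of all genes by direction and at the unadjusted p are not given here. The members called in it are thus not read as a result about carriers. The 1 member higher at an unadjusted p under 0.05 became 2 with DESeq2, with DESeq2's size factors in edgeR and with a filter at 1 CPM, 3 with all genes that had a count, 0 at a p under 0.01, and 3, 5, 2 and 0 without WT replicate 1, WT replicate 2, *Phf2* KO replicate 1 and *Phf2* KO replicate 2. The 6 lower became 3 with DESeq2, 2 at a p under 0.01, and 2, 3, 2 and 1 without the same libraries in turn. The cause of these shifts was not tested. The median log2 fold change lay between -0.071 and 0.042 with a library left out. Groups that did not overlap numbered 53 to 65 higher and 50 to 80 lower when only 3 libraries were left, by construction. These counts were taken after the data were seen.

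With a library left out, the log2 fold changes of the carriers that followed the replicate number changed sign: -0.99 to 1.46 for *Slc37a2*, -0.46 to 2.12 for *Slc15a3*, -0.95 to 1.28 for *Slc24a5*, -0.75 to 2.60 for *Slco4a1*, -0.68 to 1.38 for *Slc43a2*, -0.92 to 0.96 for *Slc25a45*, -0.51 to 1.61 for *Slc11a1*, -0.74 to 1.14 for *Slc7a8*, -3.16 to 0.96 for *Slco2b1*, -0.42 to 0.95 for *Slc40a1*, -0.20 to 0.32 for *Slc29a3* -0.061 to 0.21 for *Slc48a1*, -0.66 to 0.39 for *Slc16a3* and -0.77 to 1.45 for *Tfrc*. Among the leading members and those at the count minimum the ranges that crossed 0 were -0.047 to 0.15 for *Slc39a7*, -0.087 to 0.13 for *Slc25a4*, -0.48 to 0.36 for *Slc29a1*, -0.30 to 0.11 for *Slc50a1*, -0.034 to 0.18 for *Slc44a2* and -0.078 to 1.00 for *Slc6a7*. Those of *Emb* were -0.22 to 0.069 and of *Bsg* -0.15 to 0.14, and *Bsg*, near 0 throughout, was at 0.00097 with DESeq2, 0.00021 with limma-voom, 0.0024 with DESeq2's size factors in edgeR and 0.00010 with the replicate block. The 7 carriers with an unadjusted p under 0.05 kept their direction, from -1.11 to -0.96 for *Slc5a7* and from 0.26 to 0.33 for *Slc8b1*. The groups of these 7 did not overlap, so their direction was largely set in advance and is no further support. The 2 libraries a group limit the precision: an adjusted p of 0.999 does not show that the groups were alike.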

Other observations

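Pumps, channels and partner proteins that work with the carriers were listed as well, 30 genes of which 29 were tested. By edgeR's quasi-likelihood test 0 of them were called at an adjusted p under 0.1, while 2 of them were higher with *Phf2* deleted and 1 was lower at an unadjusted p under 0.05, against 1.54% and 2.67% of all genes tested. DESeq2 called *Atp2b4*, with an adjusted p of 0.0153, against 0.996 from limma-voom. *Atp2b4*, a calcium pump of the plasma membrane, had 561 and 652 counts in the WT libraries, 244 and 348 in those of *Phf2* KO, with a log2 fold change at -0.88 (standard error 0.15, unadjusted p = 0.00265 by edgeR). The groups did not overlap. Both subunits of the mitochondrial pyruvate carrier, which lie outside the Slc names in this table, were above WT in both *Phf2* KO libraries. *Mpc1* had 274 and 366 counts in the WT libraries, 423 and 400 in those of *Phf2* KO, a log2 fold change at 0.54 (standard error 0.18, unadjusted p = 0.0349 by edgeR). *Mpc2* had 724 and 907 counts in the WT libraries, 890 and 1010 in those of *Phf2* KO, a log2 fold change at 0.39 (standard error 0.11, unadjusted p = 0.0225 by edgeR).

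Next by p came *Atp1b3*, a subunit of the sodium pump (log2 fold change 0.30), the mitochondrial channel *Vdac3* (0.19) and the water channel *Aqp1* (0.70), none with an unadjusted p under 0.05. *Bsg* and *Emb*, which bring lactate carriers of the Slc16 family to the plasma membrane, had log2 fold changes of -0.01 (standard error 0.14) and -0.08 (standard error 0.13). *Bsg* had 13986 and 18616 counts in the WT libraries, 12603 and 16459 in those of *Phf2* KO, with overlapping groups after scaling. *Tfrc*, the transferrin receptor, was counted 3167 and 2792 times in replicate 1 of WT and *Phf2* KO MEFs and 868 and 1161 times in replicate 2, and it was the 1 gene of the list over 1 log2 unit higher in replicate 1 in both groups. *Bsg*, *Emb* and *Tfrc* were named after their values were seen.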
